A study of Homo sapiens with 3 samples.

Results

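Untreated human cells labelled as LoVo were described here by the RNA of 1 RNA-seq library, taken at 0 days of doxycycline. Their members are the protein-coding genes at 1 TPM or more in that library, 11937 of the 19818 protein-coding genes in the table, or 60.2%. TPM, the usual length-corrected unit, is a read count per length of exon, scaled so that all genes of a library sum to a fixed total, and levels of different genes are compared below only in TPM. LoVo is an established line from a colorectal adenocarcinoma, and the labels give the cells as epithelial cells of the colon. All 3 libraries of the series, the day 0 library included, came from cells that carried a Tet-On short hairpin RNA against HRD1, the ubiquitin ligase encoded by SYVN1. Doxycycline at 1 µg/ml was given for 0, 3 or 5 days in DMEM with fetal bovine serum, with 1 library at each time. The labels do not say whether the cells were 1 clone, and no library from cells without the hairpin was analysed here.

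Cells of the intestinal epithelium are known for adherens junctions built on E-cadherin, for the surface protein EpCAM and for the transcription factors CDX2 and HNF4A, which drive genes of the brush border and of mucus. Cancer cells can hold keratins of simple epithelium together with vimentin, the intermediate filament of mesenchymal cells. Secreted and membrane proteins enter the endoplasmic reticulum (ER) through the Sec61 channel, where they receive glycans, fold with chaperones such as BiP and form disulfide bonds. Proteins that fail to fold are retrotranslocated and ubiquitinated in ER-associated degradation (ERAD), in which HRD1 is a central ligase.

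Reads within genes numbered 21308785 at day 0, 22068686 at day 3 and 25754188 at day 5. With 1 library per time there was no replicate error and no test. Square brackets after a level give 95% exact Poisson intervals of the counts, and after a ratio a 95% exact conditional interval from the counts of both libraries. Both kinds cover counting error only, and no molecular identifiers are mentioned in the labels. The median member had 678 exon reads. Of the members, 1352 (11.3%) had under 50% of their exon reads uniquely placed, so copies or overlapping genes could share their reads, and their levels are given below as uncertain. The strand used in counting is not stated in the labels, so reads of genes that overlap on opposite strands cannot be told apart.

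The members covered a wide range of levels, with most genes low and a few very high. Their median was 26.2 TPM, against 5.53 TPM over all protein-coding genes, and 5264 protein-coding genes (26.6%) were listed at 0. At 10 TPM or more there were 8783 genes, at 100 TPM or more 1979, and at 1000 TPM or more 112, which held 26.2% of protein-coding TPM. Just inside the threshold of 1 TPM lay CSNK2A3 and DHX58 at 1.001 TPM and RGS16 and ZBTB20, while ZNF233 at 0.9999 TPM, TP53TG5, DLX1 and NUTM2A lay just outside it. Membership was shared with the other libraries for most genes: 11638 members (97.5%) were also at 1 TPM or more at day 3 and day 5. A further 103 members were under 1 TPM at both other times.

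The most abundant transcripts encoded the cytoskeleton, glycolysis, translation and the respiratory chain. The 25 highest genes held 12.6% of protein-coding TPM and the 100 highest held 24.9%. GAPDH, a glycolytic enzyme, came first at 9639 TPM [9589 to 9690], with 11214 at day 3 and 9349 at day 5. The other glycolytic enzyme among the 25 was ENO1, at 3778 TPM. The actins ACTB and ACTG1 stood at 9372 and 8183 TPM, and the actin-monomer binding proteins TMSB10, TMSB4X and PFN1 at 8667, 5067 and 3278 TPM. The tubulins TUBA1B, TUBB and TUBB4B reached 5993, 4483 and 2986 TPM, although only 43.7% of the TUBA1B exon reads were uniquely placed.

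Translation was represented among the 25 by the elongation factors EEF1A1 at 7549 TPM and EEF2 at 3075 TPM and by RPL41, RPS2 and RPLP0 at 4680, 4440 and 3216 TPM. Of 86 genes for cytosolic ribosomal proteins 84 were members, and together they held 7.87% of protein-coding TPM. The mitochondrial genome contributed MT-CO1 and MT-CO3, subunits of cytochrome c oxidase, at 5789 and 4403 TPM, and MT-ND2 and MT-ND4, subunits of complex I, at 3026 and 2989 TPM. All 13 genes it encodes were members and held 2.71%. The iron storage subunit FTL stood at 7199 TPM, the cytosolic chaperone HSP90AB1 at 3190 TPM and the galactose-binding lectin LGALS1 at 2739 TPM.

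A further 3 genes among the 25 belong to more specific programmes. VIM, which encodes vimentin, ranked 14. CYR61, a secreted matrix-associated protein known as a target of the YAP coactivator, was at 3713 TPM [3679 to 3747], and IGFBP4, a secreted binding protein of insulin-like growth factors, was at 3397 TPM [3363 to 3432]. Of the 25 genes, 22 were also among the 25 highest at day 3 and 21 at day 5. FTL went from 7199 TPM to 9363 at day 5 and ACTB from 9372 to 7351, while MT-CO1 was at 4300 TPM at day 3.

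**Figure D1:**
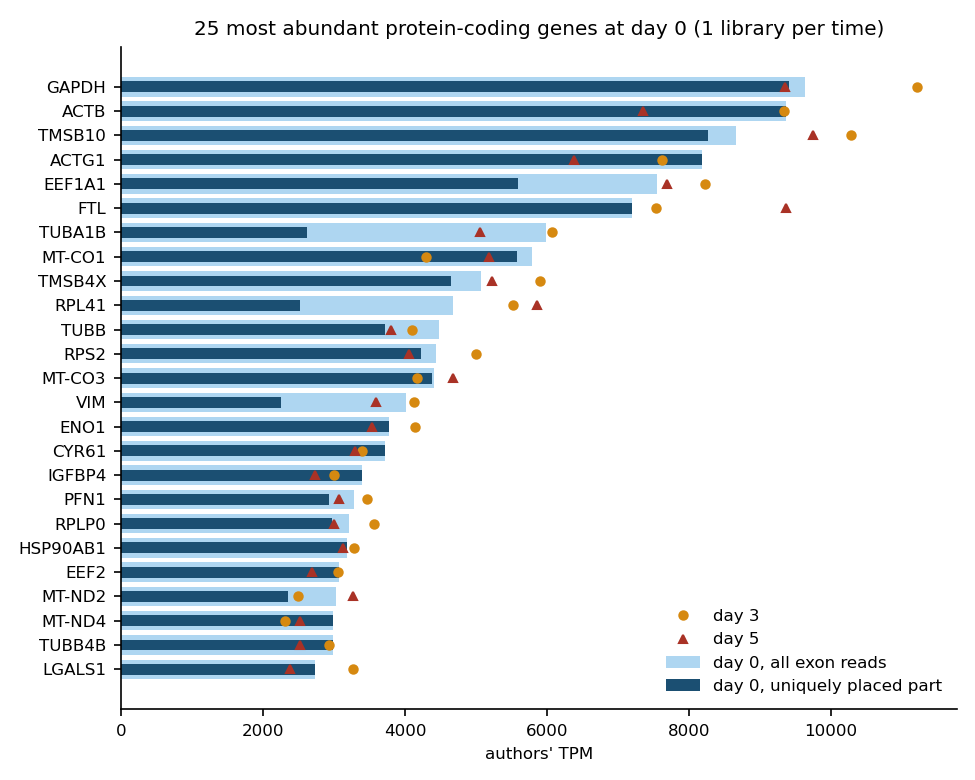
The 25 most abundant protein-coding genes of the untreated cells, with the authors' TPM on an axis that starts at 0. Pale bars give day 0, the dark part is the share of its exon reads that was uniquely placed, and the circles and triangles are the day 3 and day 5 libraries, so that GAPDH leads at 9639 TPM and LGALS1 closes the set at 2739 TPM.

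In the plot of the 25 most abundant genes the bars fall off gradually after the actins. The genes with a large part of their reads not uniquely placed are TUBA1B, RPL41 and VIM.

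The 6 identity genes set for this part of the series, VIM, KRT7, KRT8, KRT18, AXL and ALPP, were all members. The set was given and not drawn up here, so its membership describes the cells and does not check their identity. VIM lies at chr10:17228259-17237593 on the plus strand (GRCh38) and was at 4016 TPM [3991 to 4041], with 4130 at day 3 and 3588 at day 5. Of its 102271 exon reads 56.2% were uniquely placed, and its level from unique exon reads alone, scaled to their own total, was 2517 TPM. The antisense gene VIM-AS1 overlaps it and held 61 exon reads. By either count vimentin stood far above the median member.

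The keratins of simple epithelium were also high. KRT7, at chr12:52232520-52252186, was at 935 TPM [922 to 949], followed by 859 and 757 TPM at day 3 and day 5. KRT18 was at 728 TPM [715 to 741], with 738 and 727 at the later times, and KRT8, its filament partner, was at 465 TPM [458 to 472], with 483 and 415. KRT18 (chr12:52948871-52952901, plus strand) overlaps KRT8 (chr12:52897187-52949954, minus strand), and 70.2% of KRT18 exon reads were uniquely placed. The 3 keratins therefore kept 1 order in all 3 libraries, with KRT7 highest and KRT8 lowest.

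AXL, a receptor tyrosine kinase of the TAM family, lies at chr19:41219203-41261766 and was at 581 TPM [572 to 591] at day 0, then 527 and 486 TPM. ALPP, placental alkaline phosphatase at chr2:232378534-232382889, was much lower, at 26.4 TPM [23.8 to 29.1] from 398 exon reads. It was at 8.13 TPM at day 3 and 12.6 TPM at day 5. Its paralog ALPPL2 was at 0.0812 TPM, and the intestinal and tissue-nonspecific genes ALPI and ALPL were listed at 0, so ALPP was the only member among these 4 alkaline phosphatases.

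**Figure D2:**
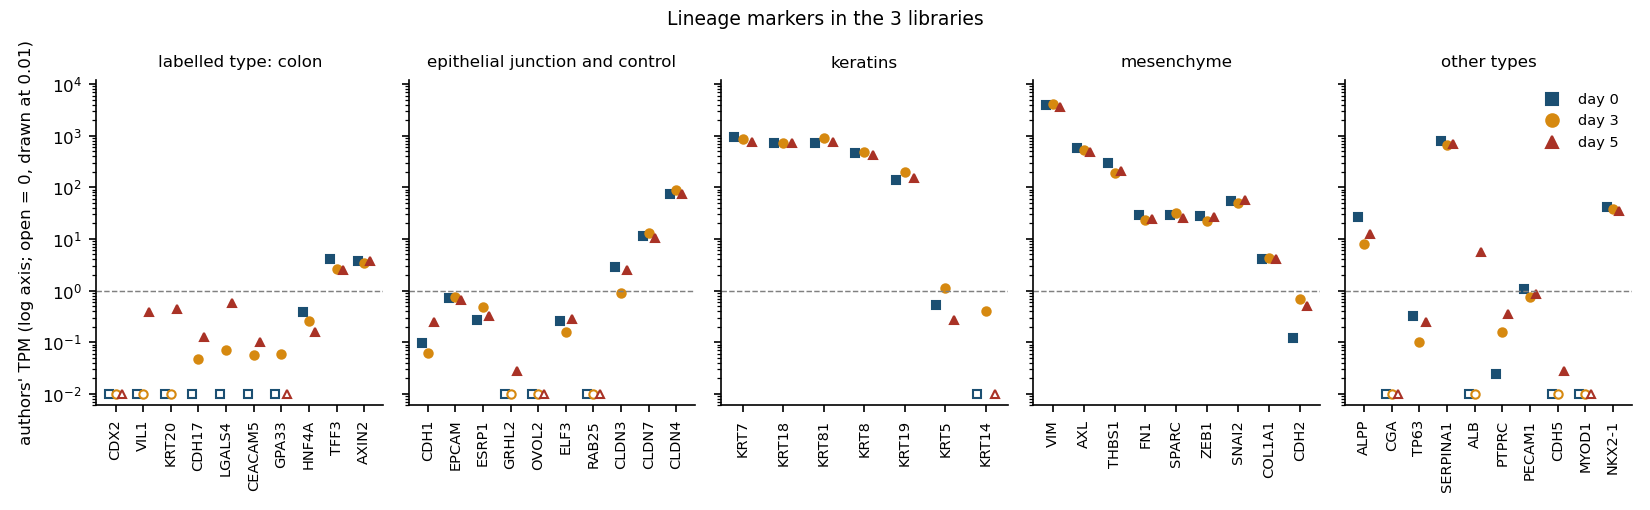
TPM of marker genes in 5 panels on a log axis, with 1 symbol for each of the day 0, day 3 and day 5 libraries, open symbols for genes at 0 (drawn at 0.01) and a dashed line at 1 TPM. VIM lies at 4016 TPM in the untreated cells and KRT7 at 935 TPM, while CDX2 is at 0 and EPCAM and CDH1 are under 1 TPM in every library.

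In the plot of marker genes KRT7, KRT8, KRT18 and VIM keep a like level across the libraries, and most genes that spread between libraries lie under 1 TPM, with ALPP, ALB and CLDN3 among the exceptions. Markers of intestinal epithelium were mostly absent from the reads, which goes against the colon label. Of the 35 colon epithelium genes measured, 6 were members (17.1%), against the 60.2% of all protein-coding genes, 22 were listed at 0, and the list's median was 0 TPM. CDX2, VIL1 (villin) and KRT20 had 0 exon reads, where 3 reads would have been 0.147, 0.0878 and 0.329 TPM. CDX2 was listed at 0 in the other libraries too, while VIL1 was at 0.382 TPM and KRT20 at 0.447 TPM at day 5. HNF4A was at 0.388 TPM. The surface proteins CDH17, CEACAM5, GPA33 and LGALS4 were also listed at 0. In a bulk library, few cells with a transcript and little of it in each cell cannot be told apart.

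Of the 6 colon genes that were members 1 was at 10 TPM or more and made up most of the list's sum of 42.4 TPM. The other 5 were the trefoil peptide TFF3 at 4.16 TPM, the Wnt target AXIN2 at 3.72 TPM, the ephrin receptor EPHB3 at 3.62 TPM, the goblet cell factor SPDEF at 2.43 TPM and carbonic anhydrase CA2 at 2.29 TPM.

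General epithelial genes divided into a group at high levels and a group near 0. Of 32 genes 18 were members, with a list median of 2.70 TPM. The protease inhibitor SPINT2 was at 171 TPM, the sorting adaptor AP1M2 at 97.3 TPM, the desmosomal proteins PKP3 and DSP at 92.4 and 55.2 TPM, and the tight-junction proteins CLDN4 and CLDN7 at 72.7 and 11.2 TPM. EPCAM, by contrast, was at 0.724 TPM [0.331 to 1.37] from 9 exon reads, or 1.26 TPM where its intronic reads were counted too. CDH1, which encodes E-cadherin, had 3 exon reads, or 0.0984 TPM [0.0203 to 0.288], with 0.0605 and 0.241 TPM at day 3 and day 5. The splicing regulator ESRP1 and the factor ELF3 were at 0.264 and 0.254 TPM, and GRHL2, OVOL1, OVOL2, EHF, RAB25, PRSS8 and MARVELD3 were listed at 0.

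Among other keratins, KRT81, a hair keratin, was at 714 TPM with 66.3% of its reads uniquely placed, and KRT80 was at 122 TPM with 37.8%. KRT19 was at 137 TPM [130 to 144], then 194 and 154 TPM. Of 55 keratin genes 10 were members and 37 were listed at 0, KRT14 among them. The squamous list had 9 of 22 members, led by the 14-3-3 protein SFN at 469 TPM, the hemidesmosomal integrin ITGB4 at 168 TPM and the desmosome-associated PERP at 149 TPM. TP63, the defining factor of squamous basal cells, was at 0.326 TPM.

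Mesenchymal genes were present in part. Of 36 genes on that list 22 were members, with a median of 5.47 TPM, close to the 5.53 TPM of all protein-coding genes, and a sum of 5666 TPM of which VIM made up most. The matrix glycoprotein THBS1 was at 294 TPM [289 to 299] at day 0, then 194 and 205 TPM. The collagen cross-linking enzyme LOXL2 was at 244 TPM, and COL6A1 at 119 TPM. The repressors SNAI2 and ZEB1, which act on the E-cadherin gene in the epithelial to mesenchymal transition, were at 54.1 TPM [49.8 to 58.7] and 28.1 TPM [26.6 to 29.8], and fibronectin (FN1) was at 28.96 TPM.

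Other defining mesenchymal genes were at or near 0. N-cadherin (CDH2) had 3 exon reads, or 0.123 TPM, and COL1A1 was at 4.002 TPM, while COL1A2, TWIST1, TWIST2, DCN, LUM, FAP and THY1 were listed at 0. With E-cadherin and N-cadherin both near 0, the highest of 23 cadherin genes was CDH4 (R-cadherin), at 99.2 TPM [96.0 to 102], with 93.4 and 87.2 TPM at the later times. In all 5 cadherin genes were members.

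**Figure D3:**
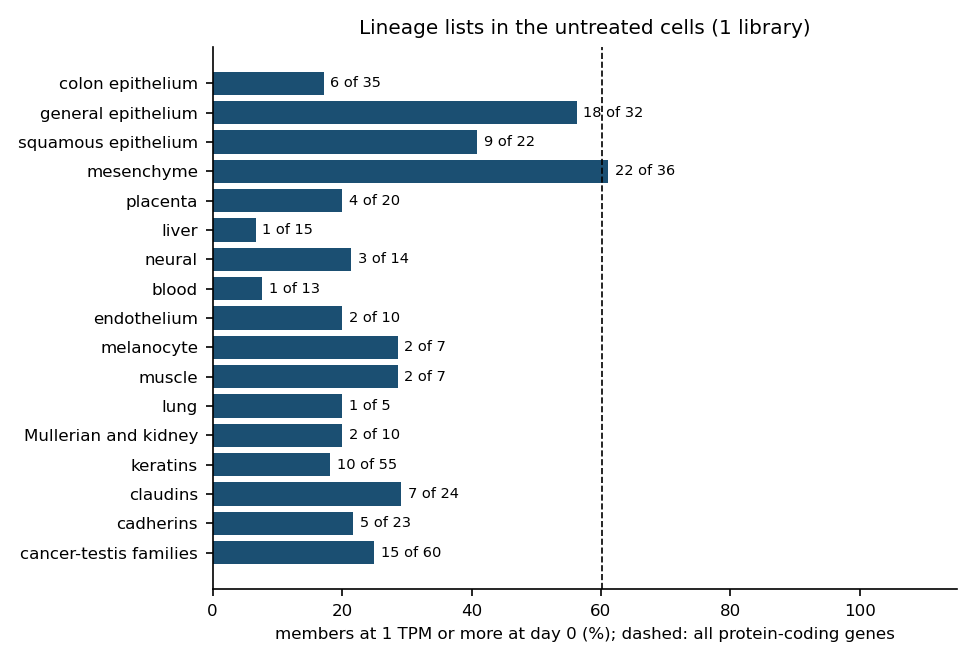
The share at 1 TPM or more of the tissue lists and of the keratin, claudin, cadherin and cancer-testis lists in the untreated cells, as bars in percent that start at 0, with the count written beside each bar and a dashed line at the 60.2% of all protein-coding genes. Colon epithelium (6 of 35) lies well short of the line, and general epithelium (18 of 32) and mesenchyme (22 of 36) lie near it.

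Of the tissue lists in the plot, mesenchyme (61.1%) and general epithelium (56.25%) have bars near the dashed line, and the rest fall short of it. Lists for other tissues held few members, each led by 1 or 2 genes. Placental genes gave 4 of 20, TFAP2C at 55.1 TPM, ALPP, GATA3 at 6.10 TPM and XAGE2 at 1.31 TPM, while the trophoblast genes CGA and GCM1 were listed at 0. Liver genes gave 1 of 15, SERPINA1, the secreted protease inhibitor alpha-1 antitrypsin, at 799 TPM [787 to 810], then 664 and 693 TPM. ALB had 0 reads at day 0 and day 3 and was at 5.57 TPM at day 5, when 9 of the 15 liver genes were at 1 TPM or more. Blood genes gave 1 of 13, the actin-bundling protein LCP1 at 167 TPM, and PTPRC (CD45) had 1 read, or 0.0242 TPM. At day 3 and day 5, 2 and 6 of the 13 blood genes were at 1 TPM or more.

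Of the neural list 3 of 14 were members, with TUBB3 at 154 TPM on reads that were only 14.4% uniquely placed, and NES at 11.3 TPM. Endothelial genes gave 2 of 10 (ENG at 61.0 TPM and PECAM1 at 1.07 TPM), and the melanocyte list 2 of 7, with MITF at 31.1 TPM. Of 5 lung genes 1 was a member, NKX2-1 at 41.5 TPM, or 9.56 TPM from unique exon reads. Muscle genes gave 2 of 7, and Müllerian and kidney genes 2 of 10. No cell type is assigned to the library here: the colon label was at odds with most of its markers, and keratins, vimentin and AXL were high together.

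FOSL1 and ATF4 were the highest of the listed transcription factors. Of 330 factors in 20 families 188 were members (57.0%, near the 60.2% of all protein-coding genes), with a median of 2.58 TPM, and 22 were at 100 TPM or more. FOSL1, the AP-1 subunit FRA1, led at 534 TPM [519 to 549], with 509 and 491 TPM at day 3 and day 5. ATF4, the effector of the integrated stress response, was at 448 TPM [436 to 460], with 531 and 529 TPM. JUN, the AP-1 partner of FOSL1, was at 290 TPM and JUND at 161 TPM, and 16 of the 19 genes of the AP-1 and ATF list were members.

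Cell-cycle factors followed. E2F4 was at 306 TPM and E2F1 at 166 TPM, and all 8 E2F genes were members. FOXM1, which drives mitotic genes, was at 305 TPM, although 50.7% of its reads were uniquely placed and RHNO1 overlaps it on the other strand. MYC was at 107 TPM [102 to 113], then 124 and 138 TPM. KLF6 led the KLF and SP family at 232 TPM, and CEBPB the CEBP family at 155 TPM.

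The listed effectors of Hippo and TGF-beta signalling were all members. All 6 genes of the TEAD, YAP and TAZ list were members, with YAP1 at 113 TPM, TEAD1 at 88.8, WWTR1 (TAZ) at 68.7 and TEAD4 at 68.1 TPM. The YAP targets CYR61 and CTGF were at 3713 and 1067 TPM, and their values at the later times were 3398 and 3298 TPM for CYR61 and 809 and 758 TPM for CTGF. All 8 SMAD genes were members, SMAD3 highest at 102 TPM. ETS1 and ELK3 of the ETS family were at 113 and 131 TPM, and STAT6 and STAT3 at 108 and 96.0 TPM.

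Factors that set position or lineage were fewer. Of 39 HOX genes 11 were members, but 6 by unique exon reads, and HOXB9 at 17.1 TPM had 13.8% of its reads uniquely placed. HOXC13 was at 11.4 TPM. The endoderm factors FOXA2 and SOX9 were at 117 and 93.8 TPM, and at 21.4 and 27.9 TPM from unique exon reads scaled to their own total, so both are uncertain. GATA2, GATA6 and GATA3 were at 19.99, 17.6 and 6.10 TPM, and the other 3 GATA genes were listed at 0.

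Nuclear receptors gave 26 of 48 members. The orphan receptors NR2F6 and NR2F1 were at 114.9 and 94.1 TPM, and PPARG, a regulator of lipid metabolism, was at 74.8 TPM [71.1 to 78.7], with 72.3 and 74.6 TPM later. The glucocorticoid receptor NR3C1 was at 48.0 TPM and VDR at 26.6 TPM. Of the estrogen and progesterone receptors ESR1 was at 0.0292 TPM and PGR was listed at 0.

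The highest surface receptors were F3, EPHA2 and NT5E. Of 238 receptor genes 150 were members (63.0%, near the 60.2% of all protein-coding genes), with a median of 6.25 TPM. F3, tissue factor, was at 955 TPM [939 to 971], then 873 and 1063 TPM. EPHA2, an ephrin receptor kinase, was at 931 TPM [918 to 944], then 801 and 736 TPM. NT5E (CD73), which makes adenosine, was at 624 TPM and the TWEAK receptor TNFRSF12A at 593 TPM. F2RL1, a protease-activated receptor, was at 419 TPM and led the 42 G protein-coupled receptors.

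Receptor tyrosine kinases gave 27 of 58 members. After EPHA2 and AXL came EGFR at 136 TPM [133 to 139], with 93.3 and 117 TPM later, MET at 88.7 TPM and EPHB4 at 72.3 TPM. ERBB2 was at 24.6 TPM, while KIT and PDGFRA were listed at 0. EGFR was thus below EPHA2 and AXL in all 3 libraries.

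Integrins gave 12 of 26 members, with the shared beta chain ITGB1 at 600 TPM and its laminin-binding partner ITGA3 at 499 TPM. The pair ITGA6 and ITGB4, the laminin receptor of hemidesmosomes, was at 147 and 168 TPM. Of the laminins themselves 7 of 12 were members, led by LAMB3 at 531 TPM and LAMB2 at 294 TPM.

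The remaining receptor families differed in how many genes were members, beside 60.2% of all protein-coding genes. TGF-beta family receptors gave 12 of 14 members with TGFBR2 at 210 TPM, cytokine receptors 21 of 26 with IL13RA1 at 69.1 and OSMR at 64.9 TPM, and Wnt receptors 11 of 15 with FZD6 at 92.8 and FZD2 at 87.0 TPM. LGR5, the intestinal stem cell receptor, was at 0.0771 TPM. Of the Notch receptors NOTCH2 and NOTCH1 were members (2 of 4), at 80.8 and 32.5 TPM, and the TNF receptor superfamily gave 15 of 27.

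**Figure D4:**
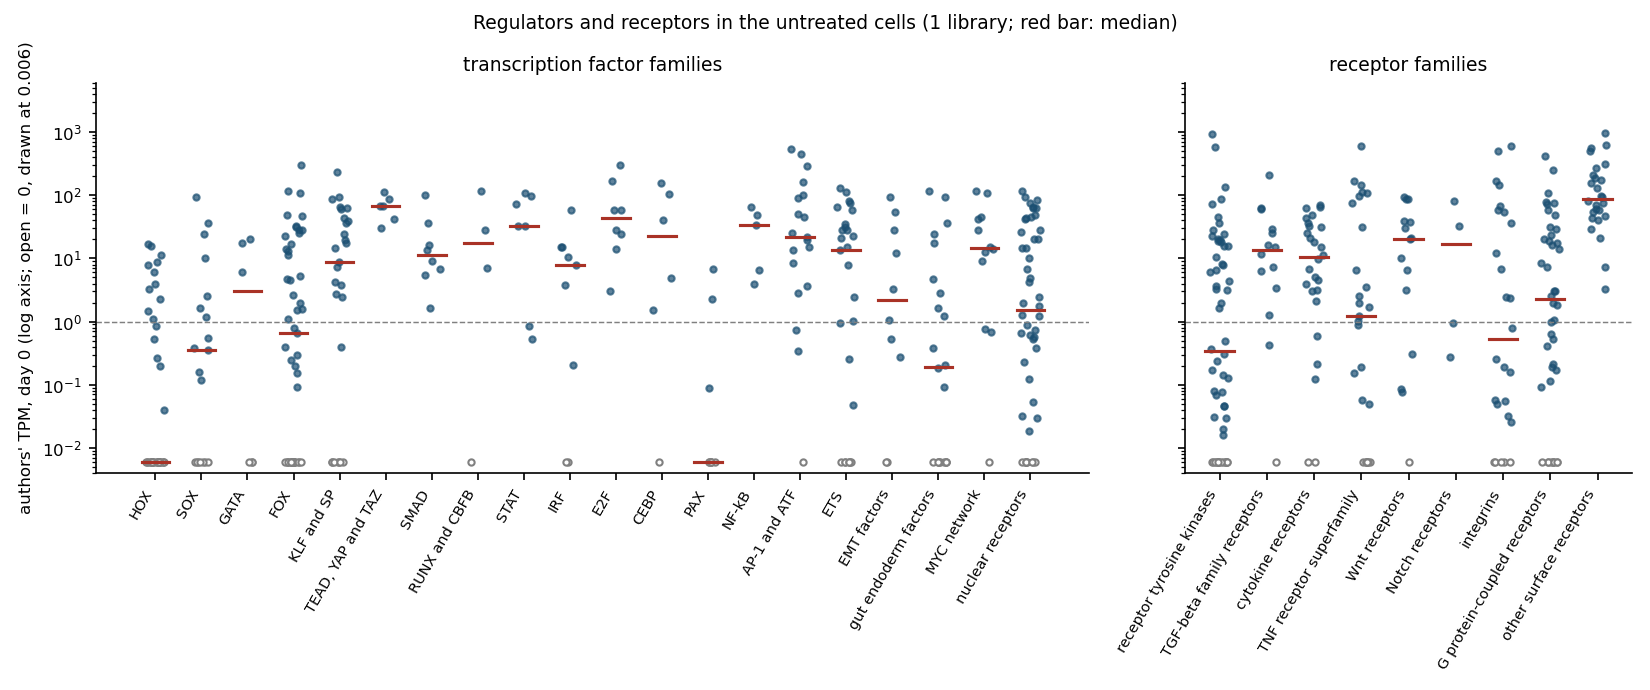
Each gene of the transcription factor families (left) and receptor families (right) as a point by TPM at day 0 on a log axis, with red bars for list medians, open points for genes at 0 (drawn at 0.006) and a dashed line at 1 TPM. The highest factor is FOSL1 at 534 TPM, in the AP-1 and ATF list, and the highest receptor is F3 at 955 TPM, among the other surface receptors.

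In the plot of factor and receptor families the HOX and PAX medians lie at 0 and the TEAD, YAP and TAZ points lie close together above 10 TPM. Nearly all listed ER genes were members before knockdown. Of 129 ER genes in 7 lists 123 were members (95.3%, beside 60.2% of all protein-coding genes) and 48 were at 100 TPM or more. The median of the 129 was 69.1 TPM, against 5.53 TPM over all protein-coding genes, and together they held 1.97% of protein-coding TPM. The summed level was 19477 TPM at day 0, 21366 at day 3 and 21084 at day 5.

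Chaperones made up the largest share, 0.586% of protein-coding TPM, with 22 of 23 genes as members. CALR (calreticulin), a lectin chaperone, was at 1349 TPM [1329 to 1369], then 1546 and 1448 TPM. HSPA5, which encodes BiP, was at 1194 TPM [1179 to 1210] at day 0 and at 1796 and 1606 TPM later, so the untreated library was the lowest of the 3. CANX (calnexin) and HSP90B1 (GRP94) were both at 672 TPM, and the prolyl isomerase PPIB was at 635 TPM. For scale, the cytosolic chaperones HSP90AA1 and HSPA8 were at 2074 and 1849 TPM.

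These 4 genes, CALR, HSPA5, CANX and HSP90B1, hold the ER stress element in their RefSeq promoters (GRCh38.p14), and the promoters are printed because they show the element of the highest ER chaperones. Each runs 5′ to 3′ on the gene's strand and covers the 250 bases before the start. Capitals mark the element CCAAT, any 9 bases, then CCACG, or, on the other strand, its reverse complement. HSPA5 is at chr9:125241344-125241593 (minus strand), CALR at chr19:12938359-12938608, HSP90B1 at chr12:103930160-103930409 and CANX at chr5:179698679-179698928 (all plus strand).
HSPA5: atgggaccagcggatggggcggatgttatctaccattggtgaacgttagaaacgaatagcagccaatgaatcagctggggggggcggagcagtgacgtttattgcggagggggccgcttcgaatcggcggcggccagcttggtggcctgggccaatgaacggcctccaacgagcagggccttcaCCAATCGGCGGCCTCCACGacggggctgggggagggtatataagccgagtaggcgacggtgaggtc
CALR: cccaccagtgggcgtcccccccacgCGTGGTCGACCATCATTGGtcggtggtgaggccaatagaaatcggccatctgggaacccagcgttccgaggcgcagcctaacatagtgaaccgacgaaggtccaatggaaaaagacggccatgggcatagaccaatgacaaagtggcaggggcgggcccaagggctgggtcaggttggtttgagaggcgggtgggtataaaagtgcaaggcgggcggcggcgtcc
HSP90B1: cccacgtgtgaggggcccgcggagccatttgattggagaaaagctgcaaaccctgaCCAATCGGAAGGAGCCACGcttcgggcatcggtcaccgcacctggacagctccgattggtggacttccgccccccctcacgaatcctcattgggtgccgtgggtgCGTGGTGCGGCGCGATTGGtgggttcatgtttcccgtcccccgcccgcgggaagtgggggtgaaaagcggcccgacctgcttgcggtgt
CANX: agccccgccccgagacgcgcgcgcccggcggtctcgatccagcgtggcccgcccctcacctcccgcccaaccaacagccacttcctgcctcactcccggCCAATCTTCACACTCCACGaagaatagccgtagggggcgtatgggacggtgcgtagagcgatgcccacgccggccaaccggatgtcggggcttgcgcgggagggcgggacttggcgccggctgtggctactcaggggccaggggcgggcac

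The match begins 66 bases before the start in HSPA5, 225 in CALR on the other strand, and 151 in CANX, and HSP90B1 holds 2 matches, at 194 bases and, on the other strand, at 89. Over both strands and the same window, 22 of 27305 promoters in the table (0.0806%) held the element, as did 14 of 9373 members with a promoter (0.149%). Of 110 ER genes with a promoter 7 held it (6.36%), the remaining ones being XBP1, CRELD2 and ERO1B. Because the element is defined as one of ER stress genes, its share among ER genes is a description and not a test. A match describes the letters and not binding.

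Disulfide isomerases and oxidases gave 20 of 23 members and 0.369% of TPM. P4HB, the classical isomerase, was at 708 TPM, PDIA6 at 435, PDIA4 at 365 and PDIA3 at 349 TPM. TXNDC5 was listed at 457 TPM, but only 10.5% of its exon reads were unique, and from unique reads scaled to their own total it was at 53.7 TPM. AGR2, an isomerase of mucus-secreting cells, was at 25.2 TPM [22.6 to 28.0], then 50.3 and 52.4 TPM, and AGR3 and PDIA2 were listed at 0.

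The listed genes of targeting, translocation and glycan transfer were all members. All 8 genes of the signal recognition particle and its receptor were members, SRP14 highest at 427 TPM [415 to 441], with 469 and 406 TPM later. All 17 translocon and signal peptidase genes were members, with SEC61A1 at 384 TPM on 44.98% unique reads and SEC61B at 277 TPM. The 12 oligosaccharyltransferase genes were members with the highest list median, 160 TPM, and RPN2 and DAD1 were at 809 and 589 TPM.

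All 29 ERAD genes were members, and they held 0.265% of TPM. The extraction ATPase VCP was at 622 TPM and AUP1 at 240 TPM. SYVN1 (chr11:65121780-65134533, minus strand), the target of the hairpin, was at 43.0 TPM [40.6 to 45.5] from 1167 exon reads before induction, and at 21.4 and 20.3 TPM after 3 and 5 days. SEL1L, its membrane partner, was at 47.4 TPM, then 39.0 and 46.1 TPM. SYVN1 thus ranked 4341 among protein-coding genes, above the median member but below the 62.9 TPM median of the ERAD list.

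The stress sensors were low beside the chaperones. ATF6 was at 27.6 TPM [26.0 to 29.3], EIF2AK3 (PERK) at 18.7 TPM [17.1 to 20.4] and ERN1 (IRE1) at 5.01 TPM [4.43 to 5.65]. Their later values were 25.3 and 29.3 TPM for ATF6, 18.3 and 20.5 for EIF2AK3 and 4.28 and 4.86 for ERN1. The downstream factor XBP1 was at 86.6 TPM, and DDIT3 (CHOP) was at 69.6 TPM with 62.0% of reads uniquely placed. The epithelial sensor ERN2 was listed at 0.

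**Figure D5:**
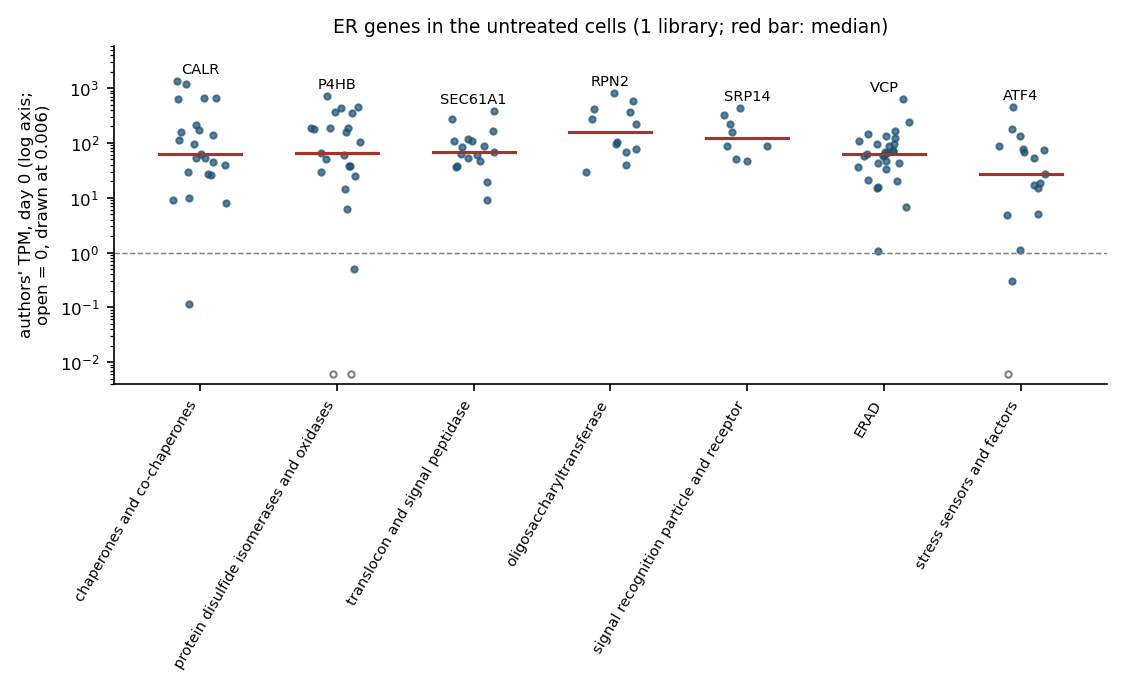
Each ER gene of the untreated cells as a point by TPM at day 0 on a log axis, in 7 lists, with red bars for medians, the highest gene named, open points for genes at 0 (drawn at 0.006) and a dashed line at 1 TPM. Medians run from 27.6 TPM for the stress sensors and factors to 160 TPM for the oligosaccharyltransferase.

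In the plot of ER lists 3 genes in all lie at 0, and every list has its median above 10 TPM. Among genes for secreted and matrix proteins CYR61, IGFBP4, MIF and CTGF stood above 1000 TPM. Of 133 such genes 81 were members (60.9%, near the 60.2% of all protein-coding genes) and the list held 1.68% of protein-coding TPM. Not all of these proteins pass through the ER: MIF, a cytokine at 1645 TPM, is released without a signal sequence. The Wnt inhibitor DKK1 was at 269 TPM, the EGFR ligand EREG at 123 TPM and the cytokine LIF at 119 TPM. Collagens gave 14 of 44 members, COL13A1 highest at 130 TPM. CTSD was listed at 716 TPM with 9.99% of reads uniquely placed.

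The baseline genes were set beside the later libraries with ratios of normalised gene reads, counting a gene where it differed at least 1.5-fold with an interval excluding 1. Genes averaging under 50 reads over the pair were left out. Over all genes, 1.25% were higher and 2.41% lower at day 3, and 1.88% higher and 1.32% lower at day 5. Of 586 list genes compared at day 3, 14 (2.39%) were higher and 14 (2.39%) lower, with a median log2 ratio of 0.00. Of 594 at day 5, 14 (2.36%) were higher and 13 (2.19%) lower, with a median of -0.01. The 14 include 4 liver genes with few or no reads at day 0, which met the read minimum only through the day 5 library. Both comparisons use the same day 0 library.

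Of the identity genes counted this way ALPP was lower at both times, with 398, 133 and 234 gene reads at day 0, day 3 and day 5, while VIM, KRT7, KRT8, KRT18 and AXL were within 1.5-fold. KRT19 was 1.53-fold higher at day 3 [1.44 to 1.63] and within 1.5-fold at day 5. ER genes gave 7 of 121 higher and 1 lower at day 3, and 2 higher and 1 lower at day 5. The day 3 genes were HSPA5, HSP90B1, HERPUD1, SDF2L1, DNAJB9, DDIT3 and AGR2, and SYVN1 was the lower one at both times. At day 5 the liver genes ALB, FGB and TTR, with 0 reads in the untreated library, had 114, 122 and 101 gene reads. The 15 liver genes summed to 799, 666 and 733 TPM at day 0, day 3 and day 5, and the 13 blood genes to 167, 196 and 217 TPM. SERPINA1 made up most of the liver sum in each library, and LCP1 made up most of the blood sum at day 0. These sums therefore say little about the other genes. At 1 TPM or more were 1, 1 and 9 of the liver genes and 1, 2 and 6 of the blood genes, in the same order. The part of blood- and liver-type transcripts in the day 5 values was not tested.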

How the data were processed

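The labels give RNAiso Plus extraction and a SMARTer mRNA-seq kit. Per the file headers, the authors deposited for each library read counts per gene (all and unique reads, over genes and over exons), the exon length and TPM. Which aligner and which counter were used is not given in these sources. The submitters' processing notes name mm10, a mouse build, but the identifiers are human. Of 58243 genes 57980 matched GENCODE 29 by identifier, 97.5% of them with equal GRCh38 coordinates. A table of the whole series, with 3 sample columns, was not used.

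Day 0 levels are the authors' TPM, and their intervals are exact Poisson at 95%. Intervals of ratios are exact conditional intervals at 95%. Ratios used total gene reads with TMM factors from edgeR 4.0.16 (R 4.3.3) and a prior count of 0.5 for log2 values. Other steps used scipy 1.17.1, pandas 2.3.3, numpy 2.4.6 and matplotlib 3.10.9 in Python 3.11.15. The ratio calls and the Poisson intervals were tested on simulated Poisson counts, which hold no variation between replicates. The other steps were not tested in this way. Members, the 61 gene lists and alternatives were chosen with earlier results of these data known. Named genes are the 25 most abundant, the 6 identity genes, up to 5 leading genes of each list, defining markers, ER sensors and the genes nearest the threshold. Others were named after their values were seen. Of 36 colon genes listed, MUC2 was not analysed here. Some listed genes are not reported here. Alternatives were other TPM thresholds, a read minimum, levels recomputed from gene or unique reads, mitochondrial genes left out, no TMM and a 2-fold limit.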

Additional observations from a re-analysis of the deposited data

Results flagged for a closer look

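Genes outside the protein-coding set, which the report's comparisons do not use, were also at levels above that of 3 reads. The small nucleolar RNA host genes SNHG5 and SNHG6 were at 203 and 155 TPM, and the antisense-named gene FGD5-AS1 was at 182 TPM in the untreated cells. No control library bears on these values.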

How the results depend on the processing

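The number of protein-coding genes kept within 1.5 times of 11937 under each alternative, from 10073 at 5 TPM to 12554 at 0.5 TPM. Colon epithelium genes numbered 6, with 1 at a threshold of 5 TPM, 7 at 0.5 TPM and 8 from unique gene reads. General epithelium genes numbered 18, with 13 at 5 TPM, 21 at 0.5 TPM and 21 from unique gene reads. Mesenchyme genes numbered 22, with 18, 23 and 23 in the same order. The share of the 25 highest genes, 12.6%, was 12.5% from total gene reads, 12.7% from unique gene reads, 12.7% from unique exon reads (chosen after seeing the data) and 12.4% without mitochondrial genes. The ER share, 1.97%, was 1.92%, 1.96%, 2.01% and 2.03% in the same order. List genes that differed at day 3 and day 5 numbered 28 and 27 at 1.5-fold, and 5 and 13 at 2-fold. At 1.5-fold they numbered 26 and 23 from unique gene reads, and 26 and 27 without TMM. Of 25 single gene levels recomputed 4 moved by over 1.5 times under some alternative: EPCAM from 0.724 to 1.43 TPM, FOXA2 from 117 to 21.4, SOX9 from 93.8 to 26.3 and VIM from 4016 to 2379. The cause was not tested. No paired analysis was possible because each time had 1 library, and for the same reason no replicate could be left out. A gene without reads was below about the level of 3 reads, which depends on its length.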

Other observations

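Cancer-testis genes, which are normally limited to germ cells, were partly present in the untreated cells. Of 60 genes of these families 15 were members and 39 were listed at 0. MAGEA3 was at 502 TPM [487 to 517], then 462 and 424 TPM at day 3 and day 5. MAGEA6 was at 297 TPM and MAGEA1 at 205 TPM, with 85.2% and 100% of reads uniquely placed. By unique exon reads 10 of the 60 were at 1 TPM or more.

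Of 38425 genes outside the protein-coding set 16845 had an exon length, which a TPM needs. In all 1428 were at 1 TPM or more, and they held 1.28% of all TPM with the rest of that set. RPL9P9, a ribosomal protein pseudogene, was listed at 912 TPM with 0.07% of its reads uniquely placed. NEAT1, the scaffold of paraspeckles, was at 99.0 TPM and GAS5 at 111 TPM.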
